A study of Mus musculus with 6 samples.

Results

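Connexins are the proteins of gap junctions, and the account below follows 8 connexin genes through the myometrium of mice without Tcf23. The 8 genes (Gja1, Gja3, Gja4, Gja5, Gjb1, Gjb2, Gjb5 and Gjc1) were chosen by symbol from the 55055 genes of the deposited table, which holds 20 connexin genes in all. RNA came from the myometrium, the smooth muscle wall of the uterus, of pregnant mice at E19.5 by the sample labels and gestational day 19 by the series design. The knockout group was 3 animals with Tcf23 knocked out by CRISPR/Cas9, and the wild-type group was 3 animals with Tcf23 intact, with 1 poly(A)-selected library per animal. Strain, maternal age, the number of founder lines and the genotype of the fetuses were not stated in the labels used.

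A connexin channel forms when a ring of connexin proteins in 1 cell docks with a ring in its neighbour, and ions and small molecules then pass from cell to cell. In the myometrium these channels become abundant shortly before birth, when they let the action potential of 1 muscle cell spread to the next so that the wall contracts as a unit. Gja1 is the connexin known for this role, Gjc1 is a further connexin of smooth muscle, Gja4 and Gja5 are best known from arterial vessels, Gjb1 and Gjb2 from epithelia, Gjb5 from the mouse placenta and skin, and Gja3 from the lens.

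Total counts were 39939686 to 65036402 in knockout libraries and 47345181 to 55236312 in wild-type libraries. Tcf23 had 0, 2 and 1 counts in knockout replicates 1, 2 and 3 and 4203, 5970 and 3360 counts in wild-type replicates 1, 2 and 3, so the labels matched the targeted gene in all 6 libraries. All 12 smooth muscle markers were detected, with summed levels of 38814, 43566 and 17495 CPM (counts per 1000000 counted reads) in knockout replicates 1, 2 and 3 and 36166, 35332 and 30324 CPM in wild-type replicates 1, 2 and 3. Epithelial, endothelial and fibroblast markers were detected too, so the tissue was not muscle alone. Mesothelial markers, from the outer lining of the uterus, were the 1 list whose sums did not overlap, at 85.0, 96.6 and 67.0 CPM in knockout replicates 1, 2 and 3 and 237, 141 and 132 CPM in wild-type replicates 1, 2 and 3. All 5 of its genes were detected. By gene, only 1 of the 5, Msln, had knockout below wild-type without overlap, beside 7.01% of all tested genes. The part of this list in the connexin values was not tested. In such bulk samples, fewer cells of a type and less RNA per cell cannot be told apart.

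All 3 knockout libraries had less Gja1 than any wild-type library, at 39.6% of the wild-type mean, and all 3 had more Gjb1, at 211% of the wild-type mean. The other 5 tested connexins overlapped between genotypes. None of the 7 tested passed edgeR's quasi-likelihood test with Benjamini-Hochberg adjustment over all 19599 genes (0 higher against a background of 0.0% of genes, 0 lower against 0.0204%). With the replicate number as a block, edgeR called 2 genes higher and 5 lower in all, and still 0 of the 7. At an unadjusted p under 0.05, 1 was higher and 1 lower (background 5.27% and 3.29%). DESeq2 called Gjb1 higher (background 1.29%) and Gja1 lower (background 0.72%), and limma-voom called 0. Gja3 had too few counts to be tested.

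**Figure D1:**
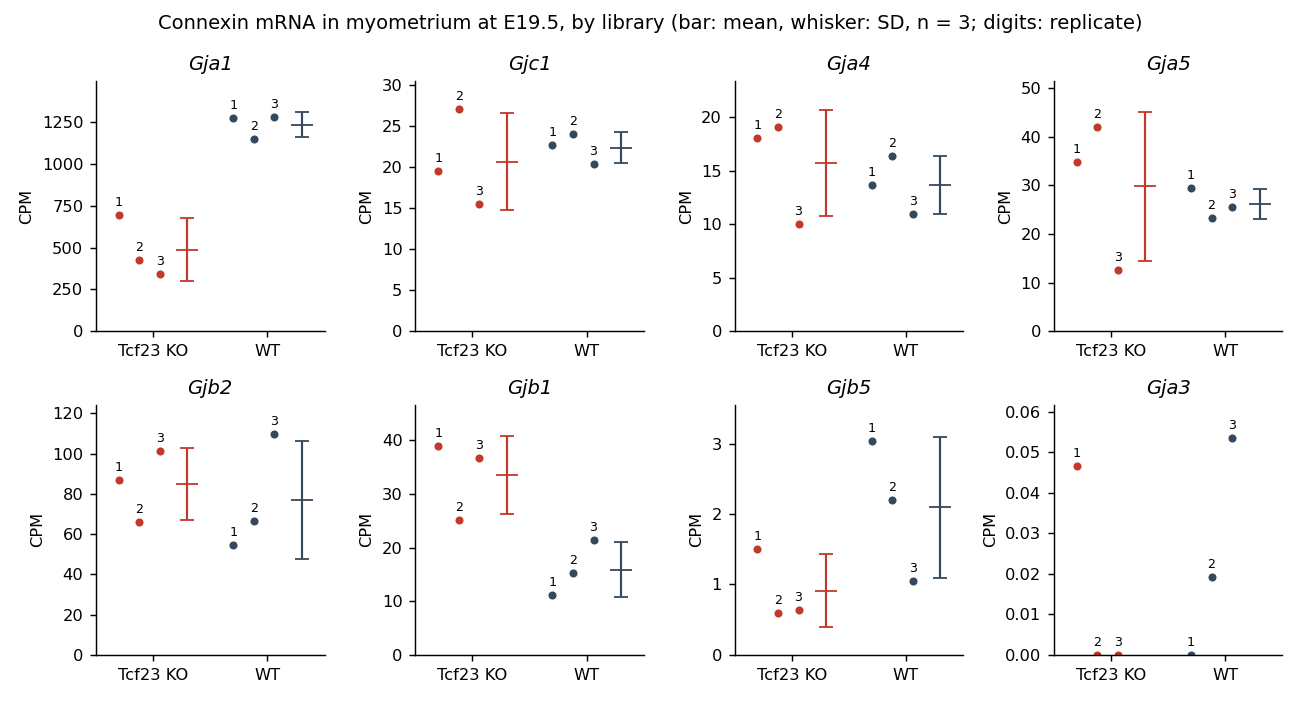
Level of each of the 8 connexin genes in CPM (vertical axes start at 0 and differ in scale) in the 3 knockout libraries (red, left) and the 3 wild-type libraries (dark, right), with the mean and SD beside the points except for Gja3. Gja1 lies at 341 to 698 CPM in knockout and 1148.5 to 1282 CPM in wild-type, Gjb1 shows the opposite order, and the other genes overlap.

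Gja1 (ENSMUSG00000050953) is on mm10 chromosome 10, 56377330 to 56390415, plus strand. It had 698, 429 and 341 CPM in knockout replicates 1, 2 and 3, against 1276, 1148.5 and 1282 CPM in wild-type replicates 1, 2 and 3. The wild-type libraries lay close together and the knockout libraries were spread over a wider range, replicate 1 being the highest of them and still below every wild-type library. The means were 489 ± 186 CPM in knockout and 1235 ± 75.4 CPM in wild-type (SD, n = 3 each). The log2 change was −1.34 ± 0.28 (SE), with a 95% interval of −1.98 to −0.69 and an edgeR adjusted p of 0.237. DESeq2 gave Gja1 an adjusted p of 0.000498, and over all alternatives its adjusted p ran from 0.000498 to 0.785.

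Knockout replicate 3 had the lowest smooth muscle marker sum and also the lowest Gja1. Counted against 1000 counts of the 12 smooth muscle markers of the same library, Gja1 had 18.0, 9.84 and 19.48 counts in knockout replicates 1, 2 and 3 and 35.3, 32.5 and 42.3 counts in wild-type replicates 1, 2 and 3. The groups did not overlap on this scale either, and the knockout mean was 43.0% of the wild-type mean. The difference of mean log2 ratios was −1.27 (exact permutation test, two-sided, p = 0.1, the smallest p that 3 against 3 libraries allow). Against Myh11 alone, the smooth muscle myosin heavy chain, the knockout mean was 47.2% of the wild-type mean, again without overlap.

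**Figure D2:**
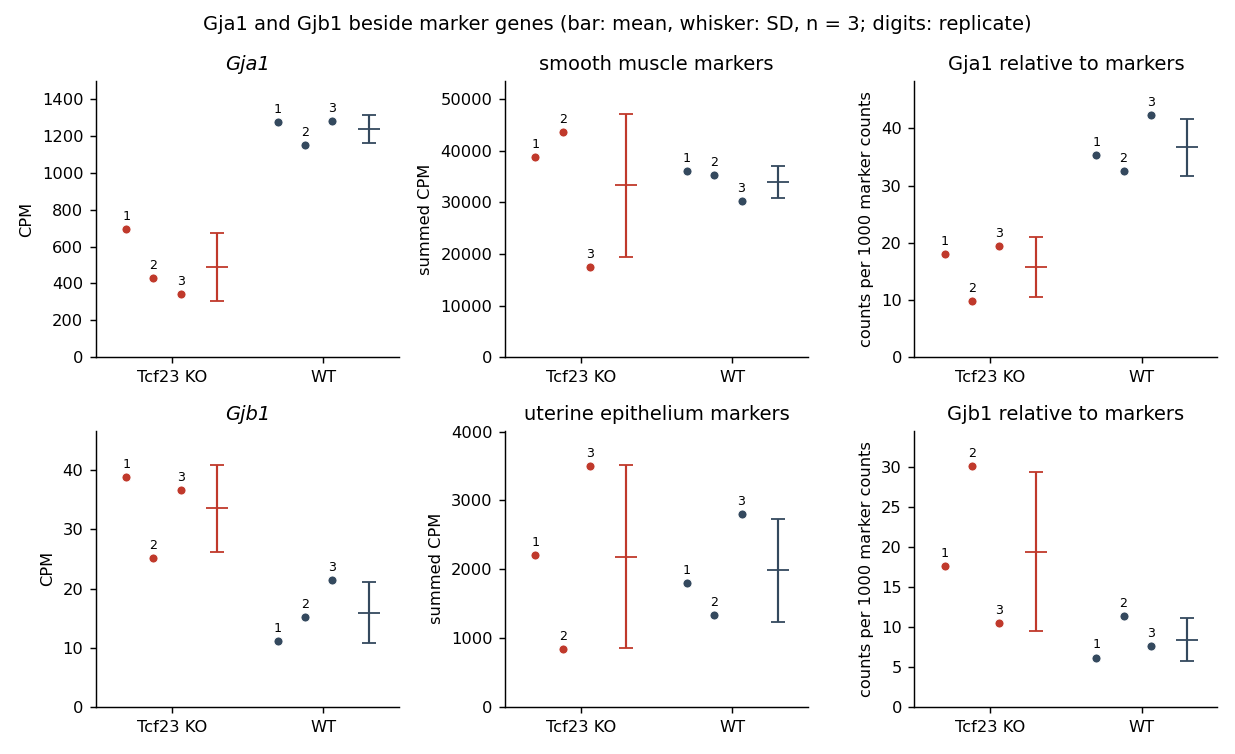
Gja1 (top) and Gjb1 (bottom) in CPM, the summed CPM of smooth muscle or uterine epithelium markers, and counts of the gene per 1000 marker counts, for knockout (red, left) and wild-type (dark, right) libraries with mean and SD. Relative to smooth muscle, Gja1 stays at 9.84 to 19.48 in knockout and 32.5 to 42.3 in wild-type, and Gjb1 relative to epithelium is at 231% of the wild-type mean with 1 knockout library inside the wild-type range.

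The Gja1 promoter is shown because AP-1 factors, pairs of Fos and Jun proteins, are known activators of this gene in the uterus. RefSeq (GRCm38.p6) windows of 250 bases before to 50 after the start were found for 7 of the 8 connexins, 11 windows in all. Motifs were searched on both strands: TGANTCA for AP-1, GGGCGG for SP factors, CAGGTG for Zeb and CANNTG for any E-box, which includes CAGGTG. Capitals mark the AP-1, SP and E-box matches. The 3 windows below are those of Gja1 at chr10:56377050-56377349 (plus strand), and the first and last of the 4 for Gjb1 at chrX:101376126-101376425 and chrX:101383482-101383781 (plus strand), the gene with the opposite difference.
Gja1: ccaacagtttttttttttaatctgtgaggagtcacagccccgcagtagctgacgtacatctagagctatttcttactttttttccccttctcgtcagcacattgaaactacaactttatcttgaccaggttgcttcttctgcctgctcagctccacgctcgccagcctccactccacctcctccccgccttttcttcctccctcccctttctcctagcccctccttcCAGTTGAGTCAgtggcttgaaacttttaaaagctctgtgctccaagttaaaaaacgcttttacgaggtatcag
Gjb1 first: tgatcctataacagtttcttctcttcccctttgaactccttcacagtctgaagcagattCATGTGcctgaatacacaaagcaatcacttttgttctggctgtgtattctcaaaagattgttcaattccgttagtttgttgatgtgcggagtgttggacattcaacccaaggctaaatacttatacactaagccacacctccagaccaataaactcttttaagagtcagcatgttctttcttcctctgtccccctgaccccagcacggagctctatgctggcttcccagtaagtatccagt
Gjb1 last: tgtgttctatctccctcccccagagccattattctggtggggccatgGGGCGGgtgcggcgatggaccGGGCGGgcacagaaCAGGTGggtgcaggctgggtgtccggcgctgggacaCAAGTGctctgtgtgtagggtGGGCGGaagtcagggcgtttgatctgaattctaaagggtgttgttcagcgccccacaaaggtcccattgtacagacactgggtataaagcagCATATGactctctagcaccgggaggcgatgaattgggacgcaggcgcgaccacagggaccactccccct

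The Gja1 window holds 1 AP-1 match, TGAGTCA, that begins 19 bases before the start and overlaps an E-box, CAGTTG. Of the 11 connexin windows, that of Gja1 alone had an AP-1 match, a motif present in 7.81% of all 32851 windows. SP matches are in 35.7% of all windows, Zeb matches in 20.2% and E-boxes in 72.3%. The last Gjb1 window has 3 SP matches and 3 E-boxes, 1 of which is its Zeb match, and the first has 1 E-box and no other match. The counts are per gene, so they do not show which Gjb1 start was used.

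Gjc1 (chromosome 11, 102799579 to 102819700, minus strand), the further smooth muscle connexin, overlapped between genotypes. It had 19.46, 27.1 and 15.5 CPM in knockout replicates 1, 2 and 3 and 22.7, 24.0 and 20.4 CPM in wild-type replicates 1, 2 and 3. The knockout libraries lay on both sides of the wild-type range. Means were 20.7 ± 5.91 CPM in knockout and 22.4 ± 1.85 CPM in wild-type (SD, n = 3 each), and the log2 change was −0.11 ± 0.21 with a 95% interval of −0.60 to 0.38 (edgeR adjusted p = 0.954). Per 1000 smooth muscle marker counts, a scale chosen for Gjc1 after its values were seen, it had 0.501, 0.622 and 0.885 counts in knockout and 0.628, 0.680 and 0.671 counts in wild-type.

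The vascular connexins Gja4 and Gja5 overlapped between genotypes and had a larger SD in knockout than in wild-type. The SD was 4.99 against 2.69 CPM for Gja4 and 15.3 against 3.14 CPM for Gja5 (n = 3 each). Gja4 (chromosome 4, 127311421 to 127314039, minus strand), a connexin of arterial endothelium, had 18.1, 19.1 and 10.02 CPM in knockout replicates 1, 2 and 3 and 13.7, 16.35 and 10.97 CPM in wild-type replicates 1, 2 and 3. Its log2 change was 0.21 ± 0.27 (95% interval −0.42 to 0.84, edgeR adjusted p = 0.92). Knockout replicate 3 was the lowest of the 6 libraries.

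Gja5 (chromosome 3, 96904693 to 97077416, plus strand), found in arterial endothelium and in the heart's conduction system, had 34.8, 42.1 and 12.65 CPM in knockout replicates 1, 2 and 3. In wild-type replicates 1, 2 and 3 it had 29.5, 23.3 and 25.6 CPM. Knockout replicates 1 and 2 were above every wild-type library and knockout replicate 3 was below every one. The log2 change was 0.19 ± 0.39 (95% interval −0.71 to 1.10, edgeR adjusted p = 0.957), and −0.13 without knockout replicate 2. Summed endothelial markers were also lowest in knockout replicate 3, with 692, 916.5 and 483 CPM in knockout replicates 1, 2 and 3 and 789, 716.5 and 643 CPM in wild-type replicates 1, 2 and 3. All 10 endothelial markers were detected, and their part in the spread of Gja4 and Gja5 was not tested. Gja5 counts are uncertain in part, since its exons overlap those of Gpr89 on the other strand, whose counts were 51.9% of those of Gja5, and whether reads were counted by strand was not stated.

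Gjb1 (chromosome X, 101376378 to 101385629, plus strand), known as the main connexin of hepatocytes and also present in glandular epithelia, stood opposite to Gja1. It had 38.9, 25.2 and 36.6 CPM in knockout replicates 1, 2 and 3, against 11.2, 15.2 and 21.4 CPM in wild-type replicates 1, 2 and 3. Each knockout library was above each wild-type library, with means of 33.6 ± 7.34 CPM in knockout and 15.9 ± 5.14 CPM in wild-type (SD, n = 3 each). The log2 change was 1.076 ± 0.27 (95% interval 0.45 to 1.70). Its adjusted p was 0.307 in edgeR and 0.0192 in DESeq2, and it ran from 0.0192 to 0.785 over all alternatives. Of all tested genes, groups did not overlap with knockout above wild-type for 7.22% and below it for 7.01%, beside 1 of 7 tested connexins in each direction.

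Uterine epithelium markers, all 9 detected, summed to 2210, 835 and 3499 CPM in knockout replicates 1, 2 and 3 and to 1807, 1336 and 2803 CPM in wild-type replicates 1, 2 and 3. These sums overlapped. The library with the fewest epithelial markers, knockout replicate 2, had the lowest Gjb1 of the knockout group. Knockout replicate 3 had the highest sum but less Gjb1 than knockout replicate 1. In wild-type, replicate 3 was highest in both, while the lowest sum was in replicate 2 and the lowest Gjb1 in replicate 1. The part of epithelium in the Gjb1 values was not tested. Per 1000 epithelial marker counts, a scale chosen after the values were seen, Gjb1 had 17.6, 30.2 and 10.5 counts in knockout and 6.18, 11.4 and 7.62 counts in wild-type. On that scale the knockout mean was 231% of the wild-type mean, against 211% in CPM. Knockout replicate 3 was below wild-type replicate 2, so the groups overlapped.

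Gjb2 (chromosome 14, 57098600 to 57104702, minus strand), a connexin of many epithelia including that of the uterus, overlapped between genotypes, unlike Gjb1. It had 86.8, 66.2 and 101.5 CPM in knockout replicates 1, 2 and 3 and 54.7, 66.4 and 110 CPM in wild-type replicates 1, 2 and 3. Its log2 change was 0.14 ± 0.28 (95% interval −0.52 to 0.80, edgeR adjusted p = 0.957). The value was −0.01 without knockout replicate 3 and −0.05 without wild-type replicate 1. In both genotypes the library with the highest epithelial marker sum, replicate 3, also had the highest Gjb2. Within wild-type, Gjb1 and Gjb2 were both lowest in replicate 1 and highest in replicate 3. Within knockout both were lowest in replicate 2, while the highest was replicate 1 for Gjb1 and replicate 3 for Gjb2.

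Gjb5 (chromosome 4, 127354809 to 127358181, minus strand), a connexin of the mouse spongiotrophoblast, was rare. It had 1.51, 0.595 and 0.634 CPM in knockout replicates 1, 2 and 3 and 3.04, 2.195 and 1.05 CPM in wild-type replicates 1, 2 and 3. Knockout replicate 1 was above wild-type replicate 3, so the groups overlapped, and the log2 change was −1.18 ± 0.51 (95% interval −2.37 to 0.0018, edgeR adjusted p = 0.583). Without wild-type replicate 1 it was −0.82, and without knockout replicate 1 it was −1.76. Placental markers, 10 of 11 detected, summed to 285, 12.4 and 6.60 CPM in knockout replicates 1, 2 and 3 and to 36.3, 24.9 and 40.5 CPM in wild-type replicates 1, 2 and 3. The highest sum and the highest knockout Gjb5 were both in knockout replicate 1, where the placental marker Tpbpa alone had 243 CPM. In wild-type the highest sum was in replicate 3, which had the lowest Gjb5 of that group. The part of placental tissue in the Gjb5 values was not tested.

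Gja3 (chromosome 14, 57034460 to 57058100, minus strand), a lens connexin, had 3, 0 and 0 counts in knockout replicates 1, 2 and 3 and 0, 1 and 3 counts in wild-type replicates 1, 2 and 3. No library exceeded 3 counts, the limit that a count of 0 allows, which is 0.0461 to 0.0751 CPM in knockout libraries and 0.0543 to 0.0634 CPM in wild-type libraries. No difference was detectable at this depth, and the limits cover counting error only.

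To compare levels between genes, CPM were divided by transcript length in kilobases (kb), either the union of all annotated exons (GENCODE M21) or the longest transcript. The choice matters most for Gja1, with 10257 bases of exon union over 8 annotated transcripts and 3889 bases in its longest transcript. By exon union, the order in knockout was Gja1 (47.7 ± 18.1 CPM per kb), Gjb2 (35.3 ± 7.37), Gjb1 (19.7 ± 4.30), Gja4 (9.34 ± 2.96), Gja5 (5.20 ± 2.67), Gjc1 (4.13 ± 1.18), Gjb5 (0.530 ± 0.2997) and Gja3 (SD, n = 3). In wild-type it was Gja1 (120.5 ± 7.35 CPM per kb), Gjb2 (32.0 ± 12.1), Gjb1 (9.32 ± 3.01), Gja4 (8.11 ± 1.598), Gja5 (4.55 ± 0.546), Gjc1 (4.47 ± 0.370), Gjb5 (1.22 ± 0.580) and Gja3 (SD, n = 3).

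The order of the 8 genes was the same in both genotypes, and the gap below Gja1 was not. In knockout the ranges of Gja1 and Gjb2 overlapped, and so did those of Gja4 and Gja5, and of Gja5 and Gjc1. In wild-type Gja1 stood apart from Gjb2, and the overlapping neighbours were Gjb1 with Gja4 and Gja5 with Gjc1. By longest transcript, Gja1 had 126 ± 47.8 CPM per kb in knockout and 318 ± 19.4 in wild-type (SD, n = 3 each), and it stood apart from Gjb2 in both genotypes.

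The summed level of the 8 genes sets Gja1 beside the other connexins, pooling RNA from muscle, vessels and epithelium, so it does not measure coupling in the muscle. By exon union, the sum was 148, 108.5 and 108.5 CPM per kb in knockout replicates 1, 2 and 3, against 173, 168 and 199 in wild-type replicates 1, 2 and 3. Each knockout library was below each wild-type library, and the knockout mean was 67.6% of the wild-type mean, or 53.9% by longest transcript. No test was run on these sums, whose members were chosen together.

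The 7 connexins other than Gja1 summed to 80.5, 66.7 and 75.3 CPM per kb in knockout replicates 1, 2 and 3 and to 48.8, 56.4 and 73.9 in wild-type replicates 1, 2 and 3. These sums overlapped between genotypes, with means of 74.1 ± 6.94 in knockout and 59.7 ± 12.8 in wild-type (SD, n = 3 each). The difference of 14.5 CPM per kb equals 19.9% of the 72.8 CPM per kb by which Gja1 was lower, or 8.05% by longest transcript. By exon union this share was 12.7% without wild-type replicate 1 and 30.6% without wild-type replicate 3. Gjb1 carried most of it, an epithelial connexin called higher by DESeq2 and not by edgeR.

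Gja1 made up 38.3 ± 7.60% of the summed level in knockout and 67.1 ± 4.51% in wild-type by exon union (SD, n = 3 each). By longest transcript its share was 59.8 ± 7.41% in knockout and 83.1 ± 2.60% in wild-type. The share of Gjb1 was 16.2 ± 3.19% in knockout and 5.12 ± 1.27% in wild-type by exon union. Gjc1, the connexin that shares smooth muscle with Gja1, accounted for 3.49 ± 1.31% in knockout and 2.51 ± 0.415% in wild-type.

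**Figure D3:**
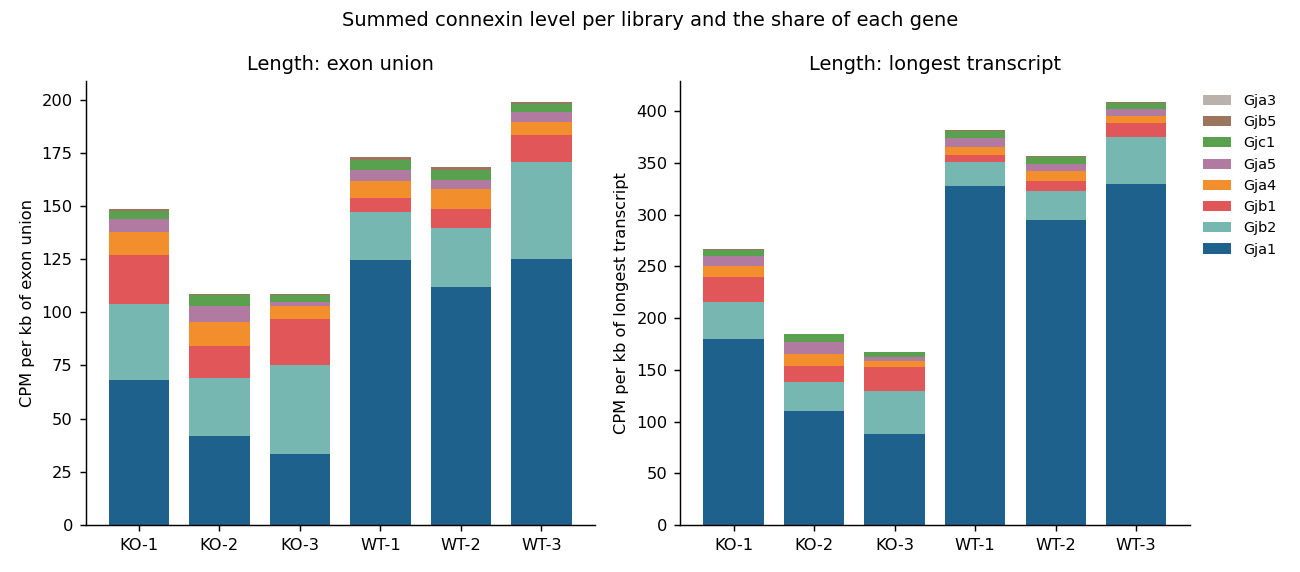
Stacked bars of connexin level in CPM per kb for each of the 6 libraries (KO-1 to KO-3, then WT-1 to WT-3), with length taken as the exon union (left) or the longest transcript (right). Under both lengths the 3 knockout bars are the lowest, and the Gja1 part is smaller in them.

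Relative to Gja1 in the same library, Gja4, Gja5, Gjb1, Gjb2 and Gjc1 stood higher in knockout. Gjb2 had 53.1, 65.8 and 127% of the Gja1 level per kb of exon union in knockout replicates 1, 2 and 3, against 18.3, 24.7 and 36.55% in wild-type replicates 1, 2 and 3. Gjb1 had 33.5, 35.3 and 64.6% in the knockout libraries, against 5.26, 7.96 and 10.01% in the wild-type libraries. Gjc1 had 5.72, 13.0 and 9.31% in the knockout libraries, against 3.65, 4.29 and 3.26% in the wild-type libraries. All 6 ratios computed share Gja1 as the denominator, and a gene with no difference would stand 1.40 higher in knockout on the log2 scale. The log2 differences were 1.25 for Gjc1, 1.43 for Gja5, 1.57 for Gja4, 1.58 for Gjb2, 2.50 for Gjb1 and 0.19 for Gjb5. The ratios thus restate the Gja1 difference together with each gene's own, and no test of them is given.

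The remaining 12 connexin genes added little, at 4.804 ± 0.755% of the summed level of all 20 in knockout and 4.37 ± 0.746% in wild-type (SD, n = 3 each, exon union). Of these 12 genes, 5 were tested, and 2 had positive and 3 negative log2 changes. Of the 5, 0 passed edgeR in either direction (background 0.0% higher, 0.0204% lower). DESeq2 called 0 of them too (background 1.29% higher, 0.72% lower). Gjb6, a connexin of skin and the inner ear, had a log2 change of −1.03 ± 0.55. Gjc3, a connexin of myelinating glia, had the widest interval of the genes plotted, with 0.218, 1.05 and 0.0487 CPM in knockout replicates 1, 2 and 3 and 0.0643, 0.193 and 0.0357 CPM in wild-type replicates 1, 2 and 3. Its log2 change was 2.17 ± 1.05 and ran from 0.55 to 3.11 over the alternatives. Gja10, Gjd2, Gjd4 and Gje1 had 0 counts in every library, and Gja6 and Gjd3 had at most 9 per library.

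Panx1, a related channel protein that does not form gap junctions in most settings, had 10.6, 8.31 and 11.2 CPM in knockout replicates 1, 2 and 3 and 8.18, 8.05 and 9.77 CPM in wild-type replicates 1, 2 and 3 (log2 0.21 ± 0.18, edgeR adjusted p = 0.851). Panx2 had a log2 change of 0.01 ± 0.40, and Panx3 had 0 counts.

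**Figure D4:**
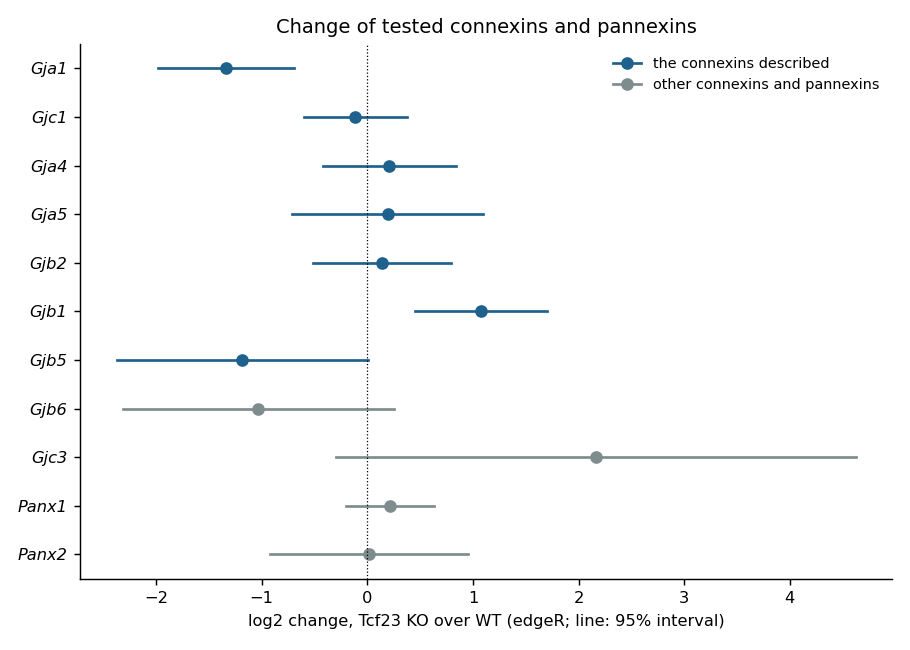
Log2 change of tested connexins and pannexins, knockout over wild-type (points), with the 95% interval from the edgeR fit (lines), for the connexins described (blue) and the other connexins and pannexins (grey). The intervals of Gja1 and Gjb1 lie to either side of 0 without reaching it, and the intervals of the other genes plotted include 0.

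Some connexin genes are neighbours, and neighbours differed in sign. Gja4 and Gjb5 lie within 46.8 kb of chromosome 4 (127311421 to 127358181), with log2 changes of 0.21 for Gja4 and −1.18 for Gjb5. Gja3, Gjb2 and Gjb6 lie within 99.2 kb of chromosome 14, with log2 changes of 0.14 for Gjb2 and −1.03 for Gjb6. None of these passed edgeR.

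The proteins that anchor, modify and degrade Gja1 were measured at the RNA level too. Of 17 genes for connexin partners and turnover, all tested, 0 passed edgeR in either direction (background 0.0% higher, 0.0204% lower) and DESeq2 called 1 lower (background 0.72%), with 3 positive and 14 negative log2 changes and a median of −0.10 beside 0.01 for all tested genes. The 1 called was Ccn3, a secreted matrix-associated protein that binds the Gja1 protein, with 19.0, 16.1 and 12.9 CPM in knockout replicates 1, 2 and 3 and 29.7, 33.1 and 22.6 CPM in wild-type replicates 1, 2 and 3. The fitted log2 difference was −0.83 ± 0.20 (edgeR adjusted p = 0.297, DESeq2 adjusted p = 0.0285, 0.0285 to 0.793 over all alternatives). Smurf2, a ubiquitin ligase, had log2 −0.38 ± 0.16 (edgeR adjusted p = 0.559), and Erp29, a chaperone of the secretory pathway, 0.30 ± 0.17 (edgeR adjusted p = 0.737). Groups did not overlap, with knockout below wild-type, for 2 of the 17, Ccn3 and Smurf2, beside 7.01% of all tested genes.

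Of 13 genes for factors known to act on the Gja1 promoter, all tested, 0 passed edgeR in either direction (background 0.0% higher, 0.0204% lower). DESeq2 called 0 of them (background 1.29% higher, 0.72% lower). Log2 changes were positive for 3 and negative for 10, with a median of −0.14 beside 0.01 for all tested genes. Pgr, the progesterone receptor, which holds Gja1 down during pregnancy, had 227, 379 and 239 CPM in knockout replicates 1, 2 and 3 and 412, 440 and 361 CPM in wild-type replicates 1, 2 and 3 (log2 −0.52 ± 0.23, edgeR adjusted p = 0.59). Esr1, the estrogen receptor, had 451, 420 and 451 CPM in knockout and 509, 566 and 544 CPM in wild-type, without overlap (log2 −0.29 ± 0.14, edgeR adjusted p = 0.637). The AP-1 gene Junb had log2 −0.26 ± 0.15 (edgeR adjusted p = 0.73), and Sp3, a zinc finger factor, −0.20 ± 0.14 (edgeR adjusted p = 0.78). Groups did not overlap, with knockout below wild-type, for 3 of the 13, Fosl2, Esr1 and Sp3, beside 7.01% of all tested genes.

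The genes whose profile over the 6 libraries was most like that of Gja1 were Zfp948, Kcne4, E330013P04Rik, Zbtb8b and Mmd, out of 10154 genes with a mean of at least 10 CPM. Likeness was the root mean square difference between log2 CPM profiles centred on their own mean, 0.154 for Zfp948, 0.167 for Kcne4, 0.211 for E330013P04Rik, 0.225 for Zbtb8b and 0.232 for Mmd. Kcne4, a potassium channel subunit, had 131, 86.8 and 56.3 CPM in knockout replicates 1, 2 and 3 and 185, 211 and 199 CPM in wild-type replicates 1, 2 and 3. Mmd, a membrane protein gene, had 68.9, 36.3 and 47.6 CPM in knockout and 134, 132 and 119 CPM in wild-type. These genes were picked for their likeness to Gja1, so their own difference between genotypes is no separate result.

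**Figure D5:**
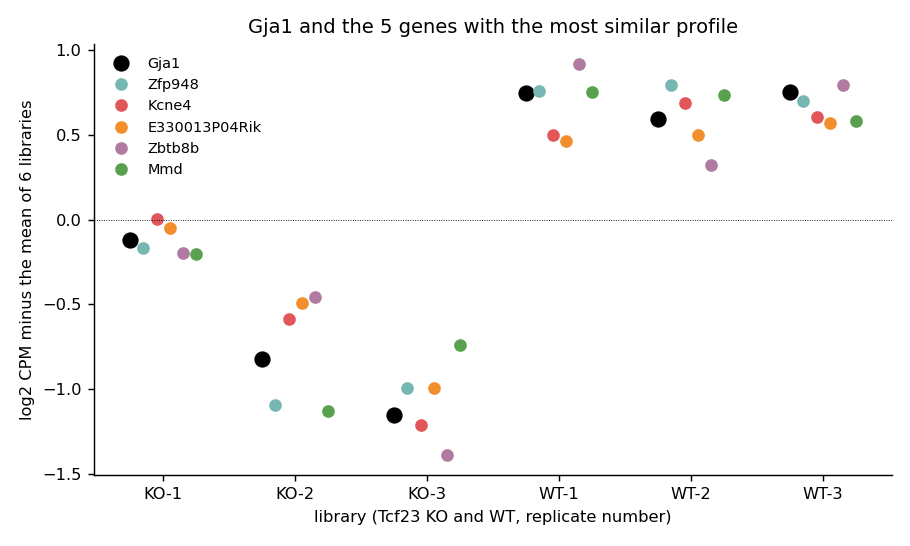
Log2 CPM of Gja1 (black) and of the 5 genes most like it, each minus its mean over 6 libraries, in the 3 knockout libraries (left) and the 3 wild-type libraries (right). In the 3 wild-type libraries all lie above their mean, and in knockout they lie near or below it, with replicate 1 nearest to 0.

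For the other connexins, the single most similar gene was Emilin1 for Gja4 (0.0729), Atp6v0e2 for Gja5 (0.101), Rbp2 for Gjb1 (0.113), Abcc3 for Gjb2 (0.0880), Pde3b for Gjc1 (0.0317) and Tpsb2 for Gjb5 (0.340), on the same measure. Rbp2, a cellular retinol-binding protein, had 19.0, 14.5 and 21.4 CPM in knockout replicates 1, 2 and 3 and 5.72, 7.32 and 10.4 CPM in wild-type replicates 1, 2 and 3. The likeness of Gjb5 to Tpsb2 was the weakest of the 6.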

How the data were processed

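The authors deposited a file of gene-level counts for every library, and a joint table of normalized values. Tools listed in the submitters' processing notes, without their roles, are HTSeq 0.9.1, HISAT2 2.2.1, FastQC 0.73 and DESeq2 2.11.40.7, and the listed build is mm10. In the deposited table each value is a signal equal to the count times 1 constant per library (0.804 to 1.26). Symbols and positions come from that table, counted from 1.

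Counts were tested with edgeR 4.0.16 in R 4.3.3: filterByExpr, TMM scaling, a quasi-likelihood fit with genotype, Benjamini-Hochberg adjusted p under 0.05. CPM use TMM-scaled library sizes, the biological coefficient of variation was 26.3%, and intervals are 95%. Alternatives were DESeq2 1.42.0, limma-voom (limma 3.58.1), limma on log2 of the deposited values plus 1, RLE and upper-quartile scaling, no filter, CPM of at least 1 in 3 libraries, a replicate block and leaving out each library. The fits were tested on simulated data.

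Replicate numbers are shared by the titles of both genotypes. Deviations from the group mean correlated across genes at 0.147, 0.196 and 0.217 where the number matched and at −0.223 to 0.0611 elsewhere. All were above 0.1 where matched, which hints at pairs. Deviations from a mean of 3 libraries sum to 0, so these correlations are not independent of each other, and the hint is weak. Where a pairing would come from is not stated, so the values, intervals and permutation tests given are unpaired, and a fit with the block is an alternative that changed no connexin call. No 2 libraries of a group were duplicates: chi-square over degrees of freedom was 32.5 to 209. Limits for a count of 0 cover counting error only.

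The connexins and gene lists were chosen with earlier results of these data known. The text names all 8 connexins, other connexins and pannexins, up to 4 genes with the smallest p per list and the genes most like each connexin. Some genes that this rule names are not reported here.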

Additional observations from a re-analysis of the deposited data

How the results depend on the processing

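Of the 7 tested connexins, Gja1, Gja4, Gjb1 and Gjb5 kept their direction under all alternatives run, and no alternative but DESeq2 called any of them. DESeq2 called 1 connexin higher and 1 lower (Gja1 log2 −1.33), and 248 genes higher and 138 lower in all. Upper-quartile scaling called 4 genes higher and 8 lower, and no filter 47 and 34. In the fit with a replicate block, edgeR called 2 genes higher and 5 lower, the log2 change of Gja1 was −1.40 (adjusted p = 0.171), and no call among the connexins changed. With 1 library left out, genes called ran from 0 to 3 higher and 1 to 4 lower, 0 connexins were called in either direction, and the log2 change of Gja1 ran from −1.68 to −1.13, with its difference relative to smooth muscle markers from −1.46 to −0.96. Log2 changes ran from −0.13 to 0.55 for Gja5, from −0.054 to 0.48 for Gjb2 (−0.011 without knockout replicate 3) and from −0.35 to 0.056 for Gjc1, and the log2 ratio of Gjb5 to Gja1 from −0.27 to 0.50. The summed level ran from 60.2 to 71.3% of wild-type, that without Gja1 from 114 to 141%, and the share of Gja1 from 34.6 to 42.2% in knockout and from 64.7 to 69.2% in wild-type. With the longest transcript in place of the exon union, the summed level was 53.9% of wild-type and the share of Gja1 59.8% in knockout and 83.1% in wild-type; a shorter length for Gja1 gives this by construction. Causes of the other shifts were not tested. Gja3 had too few counts to be tested, and Gjb6 and Gjc3 have low counts and wide intervals.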
